A study of Mus musculus with 8 samples.

Results

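The inferior retina of mice that had breathed 75% oxygen for 14 days was set against the inferior retina of mice kept in normoxia. The comparison took its 4 arrays, 2 hyperoxia-exposed and 2 control, from the 8 arrays of the series by their labels, and covered all 28853 probe sets (the sets of short probes that each measure one transcript). All mice were C57BL/6J, a pigmented inbred strain that the labels name as vulnerable to hyperoxia, housed throughout in dim light that alternated with darkness. Exposure started between postnatal days 83 and 90, and the controls were of matching age when killed. A sample was pooled RNA from the inferior or superior part of retinas of 2 animals, 1 male and 1 female, and held every cell type of the tissue. The methods describe both replicates as run independently but do not say whether they came from separate exposures, so a p-value here covers the variation among these arrays, which may be technical, and no more. The remaining 4 arrays, of superior retina under the same conditions, served to estimate the spread between arrays and to measure the change in the opposite part of the retina.

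The outer retina receives its oxygen from the choroid, a vascular layer whose flow adjusts little to the oxygen in blood, so that breathing oxygen raises the oxygen tension around the photoreceptors. Photoreceptors under stress signal to Müller cells, the radial glia of the retina, which answer through cytokine receptors that activate the transcription factor STAT3, while microglia, the resident phagocytes, migrate towards damaged photoreceptors and engulf them. In ordinary air parts of the retina work close to hypoxia, and hypoxia-inducible factors (HIF) there maintain genes for glycolysis and lactate export. HIF is destroyed by oxygen-dependent prolyl hydroxylases when oxygen is plentiful.

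Levels are given on the log2 scale of the deposited table, where a difference of 1 is a doubling, and the fold ratio (FR) is hyperoxia over control. Array medians lay between 6.98 and 7.05, and the typical probe set differed by 0.12 between both control arrays and by 0.12 between both hyperoxia-exposed arrays. All 36 rod genes measured stood among the highest 25% of levels on every inferior array, and *Vax2*, a transcription factor of the ventral eye, averaged 9.61 in inferior against 8.73 in superior control retina. Tissue next to the retina was present to a varying degree. The 27 lens genes averaged 6.11 on control inferior replicate 1 and 8.83 on replicate 2, against 6.25 and 6.77 on the hyperoxia-exposed arrays. The 22 genes of the retinal pigment epithelium, the pigmented layer behind the photoreceptors, averaged 7.55 and 8.17 on the control arrays and 7.87 and 8.06 on the hyperoxia-exposed arrays. Of 26 markers of blood leukocytes, 25 lay below the median level on each of the 4 inferior arrays.

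**Figure D1:**
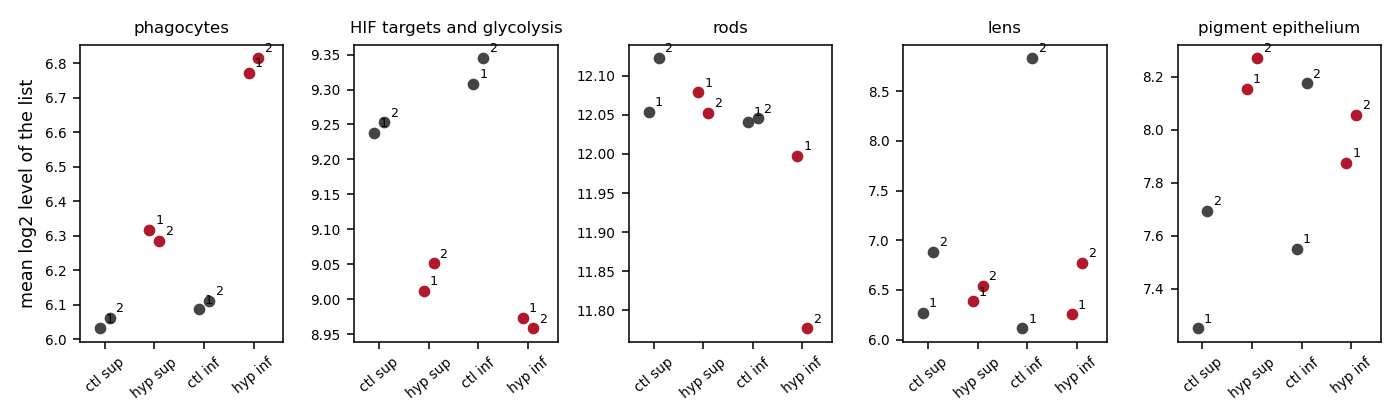
Mean log2 level of 5 gene lists on each of the 8 arrays, with a separate vertical scale per panel; numbers beside the points are replicates, grey is control (ctl), red is hyperoxia (hyp), sup is superior and inf is inferior retina. Phagocyte genes are highest and HIF and glycolytic genes lowest on the hyperoxia inferior arrays, while lens genes stand out on control inferior replicate 2.

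Of the 28853 probe sets, 142 (0.492%) passed the limma test at an adjusted p of 0.05, 124 of them higher and 18 lower, and 2708 had an unadjusted p under 0.05. Counted once per gene, 108 of 19938 genes rose (0.542%) and 11 fell (0.0552%). Rises ranged from 0.53 to 2.81, with a median of 0.92, and falls from -0.63 to -1.56, with a median of -0.87; across all genes the median change was 0.003, and 50.9% of genes lay above 0. The genes that fell were strongly expressed at the start, with a median control level of 9.63 against 7.34 for genes that rose and 7.30 for all genes. The FR was over 2 for 55 probe sets, over 4 for 4 and under 0.5 for 3. In bulk tissue a change in the number of cells of a type and a change in RNA per cell cannot be told apart. When 1 array at a time was left out, 31 of the 108 genes that rose and 2 of the 11 that fell passed in each of the 8 reduced fits. The number of probe sets that passed dropped to 35 without hyperoxia inferior replicate 2, to 61 without hyperoxia inferior replicate 1, to 78 without control inferior replicate 2 and to 80 without either control superior array. The split between rises and falls also varied, with 231 higher and 143 lower under a variance trend, 100 and 68 without either hyperoxia superior array and 76 and 67 without control inferior replicate 1.

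**Figure D2:**
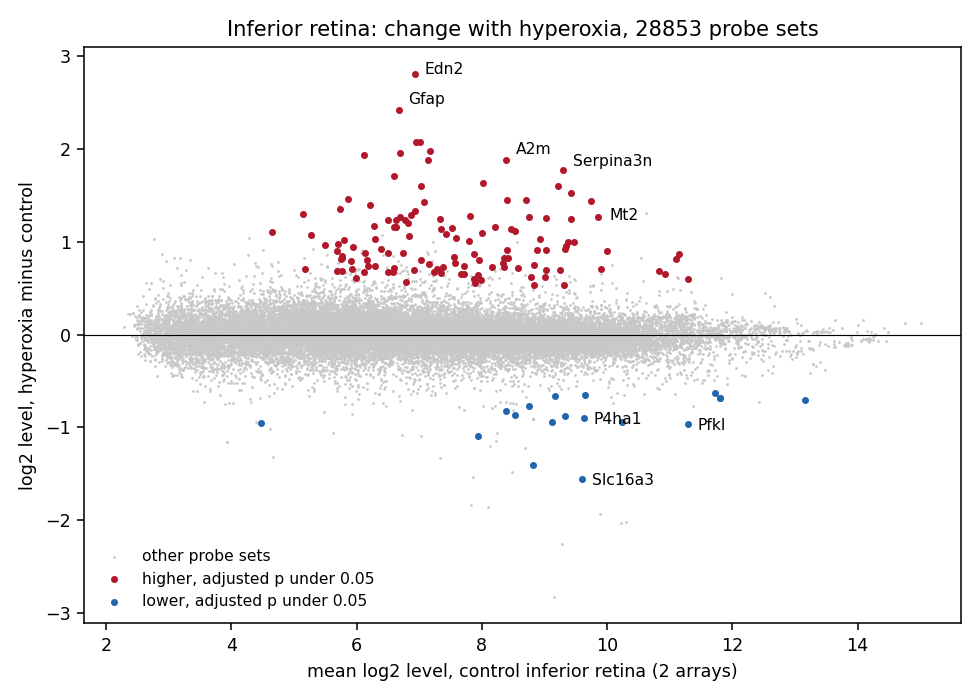
Change of each of 28853 probe sets in the inferior retina (hyperoxia minus control, log2, vertical axis) against its mean log2 level on the 2 control inferior arrays (horizontal axis). The 124 probe sets that rose (red) spread over most levels and reach 2.81 at *Edn2*, and the 18 that fell (blue) lie mainly at high levels; grey points far below 0 did not pass.

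Part of the glial stress response rose. Of 13 genes that reactive glia share across kinds of injury, 6 rose (46.2%, against 0.542% of all genes) and none fell, with a median change of 0.77. *Gfap*, the intermediate filament of activated glia, read 6.72 and 6.63 in control and 9.04 and 9.16 after hyperoxia. The acute-phase protease inhibitor *Serpina3n* read 8.92 and 9.67 in control and 10.83 and 11.31 after hyperoxia, a change of 1.78 ± 0.27 (SE, n = 2 arrays per group; adjusted p = 0.0356). *Timp1*, which inhibits matrix metalloproteinases, went from 5.96 and 5.76 to 7.42 and 7.22 (1.46 ± 0.11, adjusted p = 0.00114). The groups did not overlap in any of the 3, which held for all 142 probe sets that passed. The arrays within a group lay farther apart for *Serpina3n* than for *Gfap* or *Timp1*. The iron-carrying lipocalin *Lcn2* rose by 1.09 ± 0.10 and the copper-dependent ferroxidase *Cp* by 0.69 ± 0.09. Among members that did not pass, *Cd44*, a hyaluronan receptor, changed by 0.54 ± 0.19 and *Vim*, another intermediate filament, by 0.32 ± 0.27. The value of *Vim* was 0.78 without control inferior replicate 2, the array with high lens transcripts, -0.15 without control inferior replicate 1 and 0.64 with lens level as a covariate. Of the other glial programs, 1 of 7 genes linked to inflammatory injury rose (14.3%, against 0.542% of all genes), the C1 inhibitor *Serping1* (1.26 ± 0.17). Of 12 genes linked to ischaemic injury 0 passed in limma, with 1 of them at an unadjusted p under 0.05 and 0 by the methods' t-test after adjustment. The methods' t-test passed 2 of 28853 probe sets in all, and among the lists it passed 1 endothelin and 1 phagocyte gene, so that its counts of 0 here and below do not separate lists with rises from lists without. *Gfap*, *Osmr*, *Timp1* and *Lcn2* passed in all 8 reduced fits. *Cp* passed in 4 and *Serpina3n* in 3 of them, with adjusted p up to 0.114 and 0.234; *Cp* was lost without any single inferior array, and *Serpina3n* without either hyperoxia inferior array, control inferior replicate 1 or either control superior array. *Serping1* passed in 3, with adjusted p up to 0.152, and was lost without hyperoxia inferior replicate 2 or any single control array.

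In the cytokine route from oncostatin M and LIF to STAT3, RNA rose for a receptor subunit, the transcription factor and the feedback inhibitor. Of 27 genes of this axis 4 rose (14.8%, against 0.542% of all genes) and none fell, and the median change over the list was 0.10. The receptor subunit *Osmr* rose by 1.43 ± 0.10 (FR 2.70, adjusted p = 0.00082). *Stat3* itself read 9.09 and 8.98 in control and 10.35 and 10.23 after hyperoxia, a change of 1.26 ± 0.09 (FR 2.40, adjusted p = 0.000931). *Bcl3*, a nuclear partner of NF-κB subunits, read 6.79 and 6.59 against 8.83 and 8.48 (1.96 ± 0.16, FR 3.89, adjusted p = 0.0014). Each of these control pairs lay more than a full log2 unit below its hyperoxia pair. *Socs3*, which binds the shared receptor chain and shuts the signal off, read 7.36 and 7.49 against 8.37 and 8.65 (1.09 ± 0.12, FR 2.12, adjusted p = 0.00832). The shared chain *Il6st*, encoding gp130, read 9.97 and 9.87 against 10.55 and 10.41, a change of 0.56 ± 0.11 that did not pass (adjusted p = 0.0867). Among the ligands, *Lif* changed by 0.45 ± 0.18 (adjusted p = 0.493) and *Clcf1* by 0.16 ± 0.14, and *Il6* read between 2.75 and 3.25 on the 4 arrays. The kinase *Jak1* changed by -0.11 ± 0.11. *Osmr*, *Stat3* and *Bcl3* passed in all 8 reduced fits, and *Socs3* in all but the one without hyperoxia inferior replicate 2, where its adjusted p was 0.0772. Besides *Bcl3*, 1 of the 20 genes of the NF-κB and C/EBP list rose (10% with *Bcl3*, against 0.542% of all genes). This was the acute-phase regulator *Cebpd*, from 6.22 and 6.11 to 6.996 and 6.94 (0.80 ± 0.09, adjusted p = 0.00812). *Cebpd* was lost without control inferior replicate 2 or either hyperoxia inferior array.

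**Figure D3:**
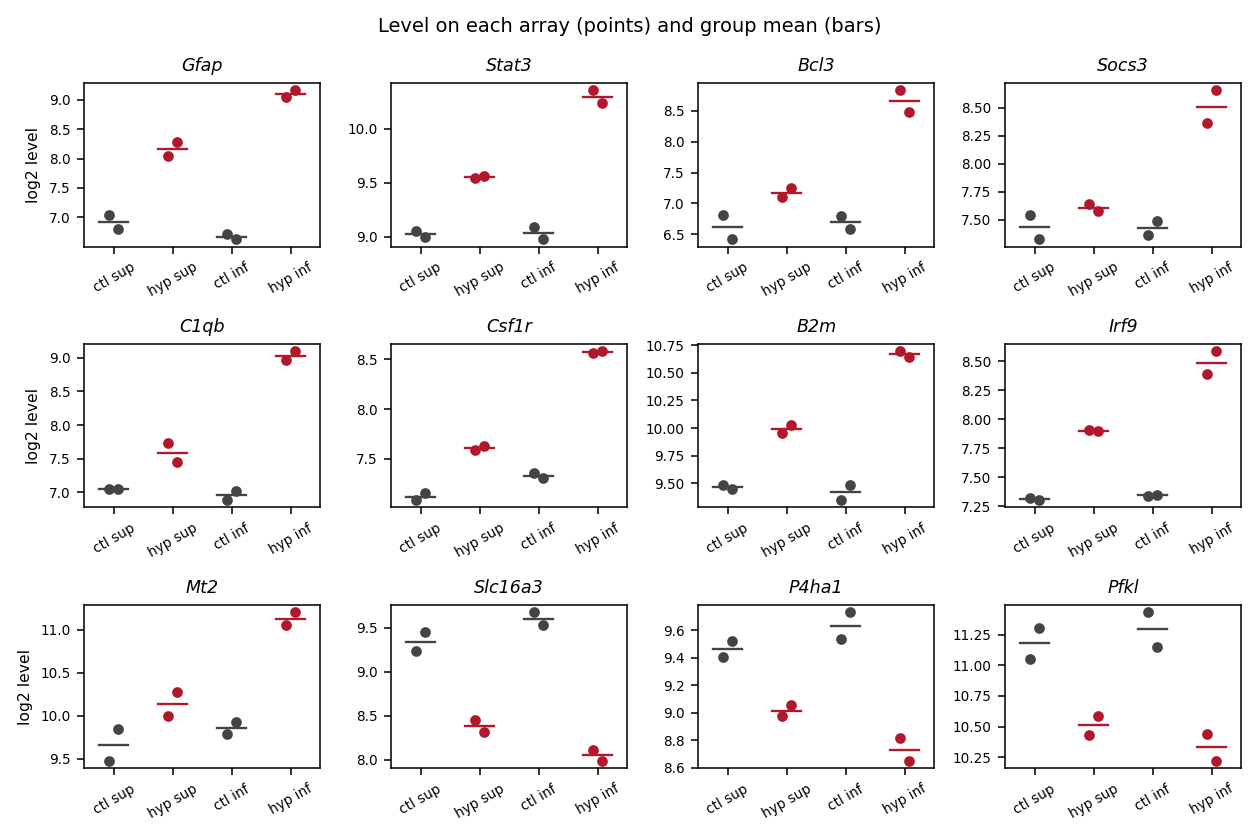
Log2 level of 12 genes on each array (points) with the group mean (bar), for superior (sup) and inferior (inf) retina of control (ctl, grey) and hyperoxia-exposed (hyp, red) mice; each panel has its own vertical scale. In the inferior retina both hyperoxia arrays lie above both control arrays for 9 genes and below them for *Slc16a3*, *P4ha1* and *Pfkl*.

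Of the secreted factors that act between photoreceptors and glia, *Edn2*, encoding the vasoactive peptide endothelin 2, and *Fgf2*, a survival factor for photoreceptors, rose. *Edn2* read 6.91 and 6.95 in control and 9.76 and 9.72 after hyperoxia, the largest of the changes that passed (2.81 ± 0.09, FR 7.02). Of 7 endothelin pathway genes measured, 1 rose (14.3%, against 0.542% of all genes), and the other 6 had changes below 0 that did not pass. Another listed gene, the endothelin receptor *Ednra*, was not measured. *Fgf2* read 8.07 and 7.95 against 9.72 and 9.57 (1.63 ± 0.09, FR 3.10). It was the only one of 22 protective factors and receptors to pass (4.55%, against 0.542% of all genes that rose). The gene *Nudt6* overlaps *Fgf2* on the opposite strand and *Fgf2os* is an annotated antisense transcript; both were looked at after their values were seen. *Fgf2os* changed by 1.39 and *Nudt6* by 0.76 in the same direction as *Fgf2*. By the label protocol the targets keep the strand of the message, but whether these probe sets share sequence was not tested. Without control inferior replicate 2 or either hyperoxia inferior array *Fgf2os* was lost (adjusted p up to 0.113) and so was *Nudt6* (adjusted p up to 0.0787), while *Edn2* and *Fgf2* passed in all 8 reduced fits.

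All 3 chains of complement C1q rose. Of 34 complement genes 8 rose (23.5%, against 0.542% of all genes) and none fell, and the median change was 0.16. C1q, which tags synapses and dying cells for removal, is built from 3 chains made by microglia. *C1qa* read 6.96 and 7.32 in control and 8.82 and 9.22 after hyperoxia (1.88 ± 0.16), *C1qb* rose by 2.07 ± 0.12 and *C1qc* by 2.07 ± 0.12, with FR between 3.69 and 4.21. The next step of the cascade, *C4b*, read 6.89 and 6.97 against 8.22 and 8.29 (1.33 ± 0.13, FR 2.51, adjusted p = 0.00309). Of the receptors on phagocytes, the C3a receptor *C3ar1* rose by 0.97 ± 0.14 and both chains of complement receptor 3, *Itgam* and *Itgb2*, by 0.94 ± 0.14 and 0.90 ± 0.12. Among regulators, *Serping1* rose, while *Clu* (0.45 ± 0.13, adjusted p = 0.297) and the factor I gene *Cfi* (0.57 ± 0.13, adjusted p = 0.136) did not pass. The alternative pathway gene *Cfb* changed by 0.30 ± 0.10 (adjusted p = 0.353), and *Hc*, which encodes C5, by 0.23 ± 0.11. With the 4 inferior arrays alone, 4 of the 34 genes passed. All 3 C1q chains passed in each of the 8 reduced fits. *C4b* missed the threshold only without hyperoxia inferior replicate 2 (adjusted p = 0.0555), and *C3ar1*, *Itgam* and *Itgb2* passed in 5, 1 and 3 of the 8, with adjusted p up to 0.189. Leaving out hyperoxia inferior replicate 2 brought the complement count to 3, and leaving out any other inferior array or either control superior array brought it to 5 or 6.

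Phagocyte genes formed the largest group of rises. Of 45 genes measured, 18 rose (40%, against 0.542% of all genes), none fell and the median change was 0.57. Both hyperoxia arrays lay above both control arrays for 38 of the 45, in a comparison where 38.4% of all genes had non-overlapping groups in either direction. The receptor for colony-stimulating factor 1, *Csf1r*, on which microglia depend for survival, read 7.36 and 7.30 in control and 8.57 and 8.58 after hyperoxia (1.25 ± 0.08, FR 2.37, adjusted p = 0.000759). The signalling adaptors *Tyrobp* and *Fcer1g*, which serve activating receptors of phagocytes, rose by 1.17 ± 0.09 and 1.29 ± 0.10. The tetraspanin *Cd53* rose by 1.23 ± 0.13, the phospholipase *Pld4* by 0.88 ± 0.10, *Aif1*, which encodes the microglial marker Iba1, by 0.68 ± 0.09, and the Fc receptor *Fcgr3* by 0.84 ± 0.13. *Ly86*, a partner of a Toll-like receptor homologue, rose by 1.98 ± 0.10 and *Mpeg1*, a pore-forming protein of phagocytes, by 1.94 ± 0.15. *Ptprc*, the common leukocyte antigen, changed by 0.57 ± 0.10 (adjusted p = 0.0602) and *Adgre1*, the F4/80 antigen, by 0.64 ± 0.11 (adjusted p = 0.0556), so that both narrowly missed the threshold. With the 4 inferior arrays alone, 8 of the 45 genes passed. The count of 18 fell to 9 without either hyperoxia inferior array and to 12 without any single control array, and was 14 once the pigment epithelium level was included in the model, an alternative added with the data in view. *Cd53* was lost without hyperoxia inferior replicate 1 (adjusted p = 0.0521), *Pld4* and *Aif1* without control inferior replicate 2 or either hyperoxia inferior array (adjusted p up to 0.106), and *Fcgr3* passed only without a hyperoxia superior array (adjusted p up to 0.234 otherwise). *Csf1r*, *Tyrobp*, *Fcer1g*, *Ly86* and *Mpeg1* passed in all 8.

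Rises occurred among markers of resting and of activated microglia. Of 19 genes typical of resting microglia 2 rose (10.5%, against 0.542% of all genes). They were the Fc receptor-like gene *Fcrls*, from 5.85 and 5.62 to 6.99 and 7.18 (1.35 ± 0.14), and the purine receptor *P2ry13* (0.67 ± 0.11, adjusted p = 0.0498). *Cx3cr1*, the fractalkine receptor, changed by 0.66 ± 0.14 (adjusted p = 0.108), *Tmem119* by 0.14 ± 0.12 and *P2ry12* by 0.19 ± 0.12. Of the 19, 5 had changes below 0. *Crybb1*, which is also a lens crystallin, read 7.44 and 12.34 in control and 7.73 and 8.19 after hyperoxia (-1.93 ± 1.21, adjusted p = 0.679), and the transcription factor *Mef2c* changed by -0.49 ± 0.12 (adjusted p = 0.19). Without control inferior replicate 1 the change of *Crybb1* was -4.38 and passed (adjusted p = 0.000558), and without control inferior replicate 2 it was 0.52. Of 30 genes of the disease-associated state 5 rose (16.7%, against 0.542% of all genes) and none fell, with a median of 0.39. They were *B2m*, *Tyrobp*, the chemokine *Ccl3*, the surface antigen *Cd52* (0.82 ± 0.12) and the tetraspanin *Cd9* (0.90 ± 0.14), the last also a Müller cell gene. *Cst7*, an inhibitor of lysosomal proteases, read 5.36 and 5.27 against 6.15 and 6.58 (1.05 ± 0.18, adjusted p = 0.0609), *Axl* changed by 0.69 ± 0.14 (adjusted p = 0.113) and *Trem2* by 0.41 ± 0.13 (adjusted p = 0.333). *Fcrls* was lost without hyperoxia inferior replicate 2 (adjusted p = 0.0793), *P2ry13* passed in 1 reduced fit, *Cd52* in 3 and *Cd9* in 0. The count of 5 became 2 without either hyperoxia inferior array or either control superior array. Of the 26 markers of blood leukocytes 0 passed in limma, with 1 at an unadjusted p under 0.05 and 0 by the methods' t-test, and their median change was 0.06. The neutrophil gene *S100a9* read 5.58 and 5.49 against 5.73 and 5.68, and *Ccr2*, the receptor that marks infiltrating monocytes, 3.30 and 3.13 against 3.06 and 3.05.

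Of 36 lysosomal genes measured, 4 rose (*Ctss*, *Laptm5*, *Cd68* and the aminopeptidase *Ctsh*; 11.1%, against 0.542% of all genes) and none fell, and the median was 0.15. *Ctsh* changed by 0.74 ± 0.11 (adjusted p = 0.0377) and missed the threshold in all 8 reduced fits; the other 3 passed in all 8. Of 43 chemokines and chemokine receptors, *Ccl3* and *Ccl12*, which attract monocytes, rose (4.65%, against 0.542% of all genes). *Ccl3* read 4.87 and 5.42 in control and 6.40 and 6.49 after hyperoxia (1.30 ± 0.17), and *Ccl12* 4.70 and 4.60 against 5.63 and 5.89 (1.11 ± 0.15). Both were lost without either hyperoxia inferior array (adjusted p up to 0.169), *Ccl3* also without either control superior array and *Ccl12* also without either control inferior array. Of 32 cytokine and inflammasome genes 0 passed in limma, 7 had an unadjusted p under 0.05, all above 0, and 0 passed by the methods' t-test. The nearest was the tumour necrosis factor receptor *Tnfrsf1a*, at 7.41 and 7.47 against 8.02 and 8.23 (0.68 ± 0.12, adjusted p = 0.0637).

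Genes induced by interferon had changes above 0 throughout. Of 40 measured, 7 rose (17.5%, against 0.542% of all genes), none fell, all 40 had a change above 0 and the median was 0.44. Both hyperoxia arrays lay above both control arrays for 32 of the 40, where 38.4% of all genes had non-overlapping groups. *Irf9*, the DNA-binding subunit of the complex that interferons activate, read 7.34 and 7.35 in control and 8.39 and 8.59 after hyperoxia (1.14 ± 0.09, FR 2.21, adjusted p = 0.00129). The effectors that passed were *Ifit1*, which binds foreign RNA (0.74 ± 0.09), the GTPase *Irgm1* (1.03 ± 0.14), the tetherin gene *Bst2* (0.68 ± 0.10), *Oasl2* (1.14 ± 0.17), *Trim30a* (1.02 ± 0.15) and the membrane protein *Ifitm3* (1.11 ± 0.18). Further members narrowly missed the threshold, such as *Ifit3* at 7.002 and 7.23 against 7.75 and 8.27 (0.89 ± 0.16, adjusted p = 0.0701) and *Usp18* at 6.01 and 5.66 against 6.44 and 6.56 (0.66 ± 0.12, adjusted p = 0.0714). *Irf9* passed in all 8 reduced fits, *Ifit1* and *Irgm1* in 4, *Oasl2* in 3, *Bst2* and *Trim30a* in 2 and *Ifitm3* in 1. The interferon count of 7 was lower in every fit that left out 1 array, and was 1 with the 4 inferior arrays alone. It was 13 when probe sets with a mean level under 6 were left out, 11 with the replicate number as a block and 4 with lens level as a covariate; the median change stayed between 0.36 and 0.50 in every reduced fit. Class I antigen presentation showed the same direction. Of 19 genes 2 rose (10.5%, against 0.542% of all genes). They were the invariant chain *B2m*, at 9.35 and 9.49 against 10.69 and 10.64 (1.25 ± 0.09, adjusted p = 0.000931), and *H2-Q4*, at 6.84 and 6.81 against 7.97 and 8.09 (1.21 ± 0.10). *H2-Q4* belongs to a family of near-identical genes, so its probe set may also read its relatives. The peptide transporter *Tap1* changed by 0.32 ± 0.09 (adjusted p = 0.269) and the immunoproteasome subunit *Psmb8* by 0.56 ± 0.12 (adjusted p = 0.127). Of 9 class II genes 0 passed in limma, with 1 at an unadjusted p under 0.05 and 0 by the methods' t-test, and the median was 0.02.

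The start regions of genes that moved were searched for letters known from the response elements of these pathways. The search covered both strands of the 250 bases before RefSeq starts of GRCm38.p6. Windows were available for 88 of the 108 genes that rose and for all 11 that fell. They were available for 29 of 40 interferon genes and 23 of 27 genes of the STAT3 axis. Some genes had several windows, so promoters outnumber the genes with a window. Genes without a window do not enter the shares. A pair of GAAA repeats 2 bases apart, the core of the interferon-stimulated response element, occurred in 2.98% of 32544 promoters, in 7.48% of 107 promoters of genes that rose, in 13.3% of 15 promoters of genes that fell and in 30.6% of 36 promoters of the interferon list. Of the 7 interferon genes that rose, *Irgm1*, *Ifit1* and *Bst2* held 2 such pairs and *Trim30a* held 1 in 1 of its windows. *Irf9*, *Oasl2* and *Ifitm3* held 0. The windows of *Irgm1* (chr11:48871421-48871670, minus strand) and *Ifit1* (chr19:34640639-34640888, plus strand) are shown as examples with 2 pairs. Capitals mark them, read as TTTC pairs on the other strand in *Ifit1*, and the 2 pairs of *Irgm1* overlap.
Irgm1: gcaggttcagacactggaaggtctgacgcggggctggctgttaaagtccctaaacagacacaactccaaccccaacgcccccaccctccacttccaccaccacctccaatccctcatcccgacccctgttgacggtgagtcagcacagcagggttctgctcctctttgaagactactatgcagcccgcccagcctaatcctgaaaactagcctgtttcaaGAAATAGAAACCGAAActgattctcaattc
Ifit1: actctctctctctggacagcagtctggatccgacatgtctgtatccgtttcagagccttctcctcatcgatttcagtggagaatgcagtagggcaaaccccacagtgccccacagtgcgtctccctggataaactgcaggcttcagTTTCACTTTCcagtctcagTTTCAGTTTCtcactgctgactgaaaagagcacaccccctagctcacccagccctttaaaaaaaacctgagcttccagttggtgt
The letters TTCNNNGAA, to which STAT factors bind, were in 7.04% of all promoters, 5.61% of those of genes that rose and 3.57% of 28 promoters of the STAT3 axis. The AP-1 letters TGANTCA were in 6.73% of all promoters and 7.48% of those of genes that rose. In the 36 promoters of the interferon list, the STAT letters were in 19.4% and the AP-1 letters in 22.2%. These matches describe the windows and do not show binding.

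Listed HIF targets and glycolytic genes mostly lay lower after hyperoxia. Of 49 HIF targets and glycolytic genes measured, 6 fell (12.2%, against 0.0552% of all genes) and none rose, 45 had a change below 0, 30 of them at an unadjusted p under 0.05, and the median was -0.37. Both hyperoxia arrays lay below both control arrays for 41 of the 49, where 38.4% of all genes had non-overlapping groups. The lactate exporter *Slc16a3* read 9.68 and 9.53 in control and 8.11 and 7.99 after hyperoxia (-1.56 ± 0.11, FR 0.34, adjusted p = 0.000931). Of the glycolytic enzymes, *Pfkl*, a subunit of phosphofructokinase, read 11.43 and 11.15 against 10.44 and 10.22 (-0.96 ± 0.14, FR 0.51, adjusted p = 0.0272). *Pgam1*, phosphoglycerate mutase, read 11.84 and 11.76 against 11.14 and 11.09 (-0.69 ± 0.10, adjusted p = 0.0361). Both are steps of the same pathway between glucose and pyruvate. *Pdk1*, a pyruvate dehydrogenase kinase, read 8.42 and 8.36 against 7.71 and 7.43 (-0.82 ± 0.11, adjusted p = 0.0226). *Ak4*, a mitochondrial adenylate kinase, read 8.39 and 8.67 against 7.65 and 7.67 (-0.87 ± 0.11, adjusted p = 0.0179). *P4ha1*, a prolyl hydroxylase of collagen, read 9.54 and 9.73 against 8.81 and 8.65 (-0.90 ± 0.11, adjusted p = 0.0106). In all 6 genes the groups were separated, as they were for all 142 probe sets that passed. *Pgam1* and *Ak4* are each read by several probe sets that may share sequence with gene copies; the others that passed gave -0.63 and -0.69 for *Pgam1* and -1.09 for *Ak4*.

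Many more members had changes below 0 without passing. *Ldha*, lactate dehydrogenase A, read 13.24 and 13.25 against 12.85 and 12.81 (-0.42 ± 0.08, adjusted p = 0.0906), and *Aldoa* and *Pgk1* changed by -0.38 ± 0.09 and -0.45 ± 0.10. The glucose transporter *Slc2a1* changed by -0.47 ± 0.15 (adjusted p = 0.338) and the hexokinase *Hk2* by -0.53 ± 0.11 (adjusted p = 0.118). Targets outside metabolism had changes in the same direction. The mitophagy receptor *Bnip3* changed by -0.54 ± 0.10 (adjusted p = 0.0794), the histone demethylase *Kdm3a* by -0.49 ± 0.09 (adjusted p = 0.0709), *Ankrd37* by -0.74 ± 0.14 (adjusted p = 0.0714) and *Vegfa*, the main angiogenic factor of the retina, by -0.43 ± 0.10 (adjusted p = 0.154). *Vegfa* read 9.28 and 9.36 in control and 8.77 and 9.01 after hyperoxia. The HIF subunits and hydroxylases themselves gave 0 of 10 past limma's threshold, 2 at an unadjusted p under 0.05 and 0 by the methods' t-test. Both of the latter, the hydroxylases *Egln1* (-0.56 ± 0.11) and *Egln3* (-0.48 ± 0.11), are HIF targets too, while *Epas1*, encoding HIF-2α, changed by 0.12 ± 0.08 and *Vhl*, which marks HIF for destruction, by -0.06 ± 0.10. The 61 respiratory chain genes gave 0 in limma, 3 at an unadjusted p under 0.05, 0 by the methods' t-test and a median of 0.05. *Slc16a3* passed in all 8 reduced fits, and *P4ha1* in all but those that lacked replicate 2 of either inferior group, where its adjusted p reached 0.114. *Ak4*, *Pdk1* and *Pfkl* passed in 3 each and *Pgam1* in 2, with adjusted p up to 0.234. The count of 6 was 1 without hyperoxia inferior replicate 2, 2 without control inferior replicate 2 or either control superior array, and 3 without control inferior replicate 1 or hyperoxia inferior replicate 1, while the median of the HIF targets and glycolysis list stayed between -0.38 and -0.33 in the 8 reduced fits. When probe sets with a mean level under 6 were left out, the count was 14 and the median of the HIF targets and glycolysis list -0.39. With the 4 inferior arrays alone the count was 1 and the median -0.37.

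**Figure D4:**
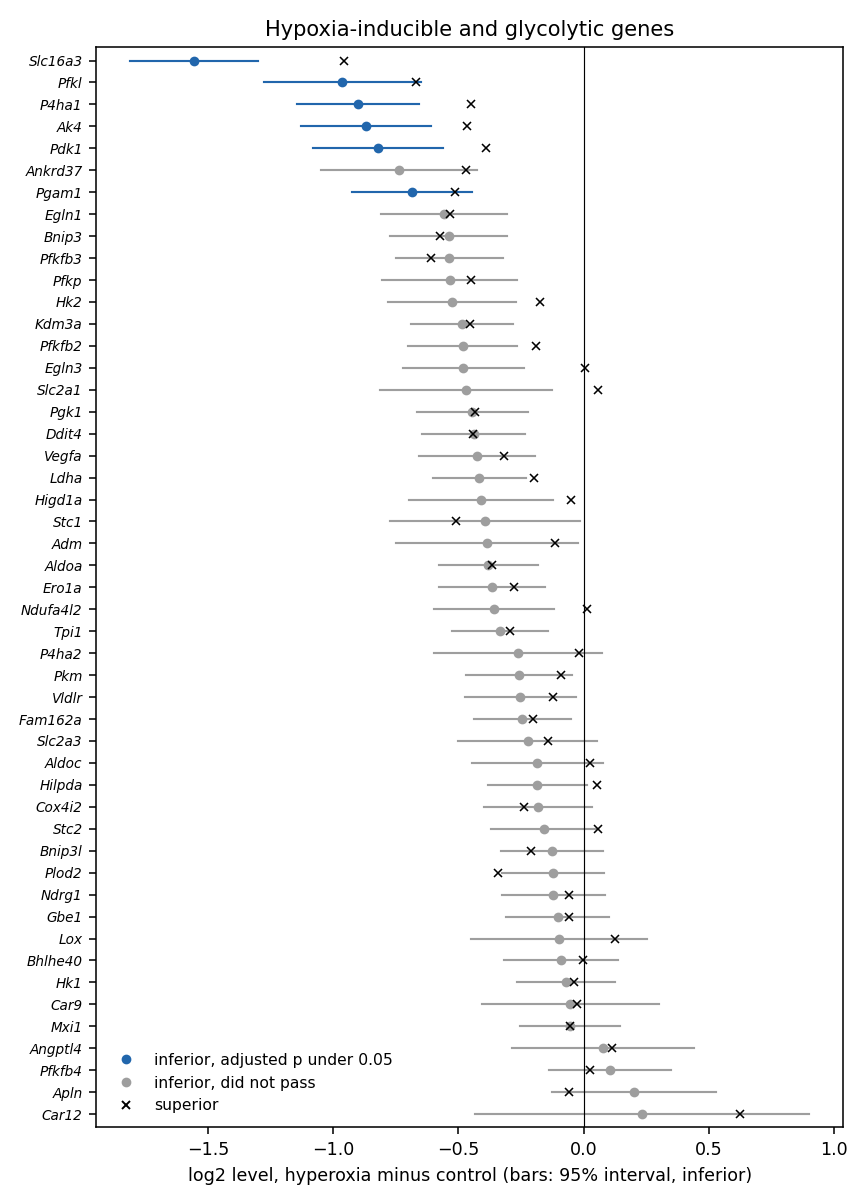
Change of each of 49 HIF targets and glycolytic genes (log2, hyperoxia minus control), ordered by the change in the inferior retina (circles, with 95% intervals from the fit), and the change in the superior retina (crosses). In the inferior retina 45 genes lie below 0 and 6 of them passed the adjusted threshold (blue).

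The letters ACGTG, the core that HIF binds, stood in 16.6% of all promoters. They stood in 47.5% of 59 promoters of the HIF targets and glycolysis list, which belonged to 39 of its 49 genes. They were also in 33.3% of 15 promoters of the genes that fell and in 15% of those of genes that rose. Of the listed genes that fell, *Pgam1*, *Slc16a3*, *P4ha1* and 1 window of *Ak4* held the letters, while *Pdk1* and *Pfkl* did not. The windows of *Pgam1* (chr19:41911621-41911870, plus strand) and *Bnip3* (chr7:138909507-138909756, minus strand) are shown as examples with these letters, which capitals mark. In *Bnip3* the letters on both strands overlap in a single palindrome.
Pgam1: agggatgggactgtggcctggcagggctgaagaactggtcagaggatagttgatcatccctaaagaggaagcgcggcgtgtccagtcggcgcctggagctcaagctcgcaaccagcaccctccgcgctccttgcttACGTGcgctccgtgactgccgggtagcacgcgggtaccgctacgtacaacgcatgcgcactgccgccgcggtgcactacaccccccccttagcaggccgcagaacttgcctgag
Bnip3: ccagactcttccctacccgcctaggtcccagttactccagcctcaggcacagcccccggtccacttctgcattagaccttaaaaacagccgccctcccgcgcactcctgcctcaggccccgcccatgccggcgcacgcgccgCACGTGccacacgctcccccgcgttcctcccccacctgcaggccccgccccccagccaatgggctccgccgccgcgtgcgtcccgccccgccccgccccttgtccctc
As with the interferon letters, a match is a property of the sequence.

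The metallothioneins *Mt1* and *Mt2* rose. Metallothioneins are small cysteine-rich proteins that bind zinc and copper. *Mt2* read 9.79 and 9.92 in control and 11.05 and 11.21 after hyperoxia (1.27 ± 0.15, FR 2.41, adjusted p = 0.00929) and *Mt1* 10.85 and 10.996 against 11.54 and 11.61 (0.65 ± 0.09, adjusted p = 0.0256). The neuronal *Mt3* changed by 0.17 ± 0.12, the zinc exporter *Slc30a1* by 0.23 ± 0.09 and the metal-sensing factor *Mtf1* by -0.01 ± 0.09 (0.01 after quantile normalization). Thus 2 of 7 genes passed, both as rises (28.6%, against 0.542% of all genes). *Mt2* was lost without either hyperoxia inferior array (adjusted p up to 0.114), and *Mt1* passed only without a hyperoxia superior array (adjusted p up to 0.189 otherwise). The letters TGCNCNC, a loose form of the metal response element, were in 44.7% of all promoters and 50.5% of those of genes that rose. They were in 83.3% of 6 promoters of the metallothionein list, which belonged to 6 of its 7 genes. A promoter of *Msn* and a promoter of *Agtpbp1* held 5 matches each. The window of *Mt2* (chr8:94172368-94172617, plus strand) also holds 5 and is shown with them in capitals.
Mt2: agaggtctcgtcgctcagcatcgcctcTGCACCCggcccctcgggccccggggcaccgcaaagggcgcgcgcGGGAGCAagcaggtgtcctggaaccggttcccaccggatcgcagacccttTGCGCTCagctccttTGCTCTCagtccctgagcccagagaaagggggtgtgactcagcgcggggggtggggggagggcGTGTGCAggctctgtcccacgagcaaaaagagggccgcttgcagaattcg
Of 36 antioxidant and glutathione enzymes 0 passed in limma, 3 had an unadjusted p under 0.05, 0 passed by the methods' t-test and the median was 0.05. The largest was haem oxygenase 1, *Hmox1*, at 6.88 and 7.01 against 7.34 and 7.70 (0.58 ± 0.13, adjusted p = 0.134), and the peroxiredoxin *Prdx1* changed by 0.31 ± 0.11. Of 20 iron genes 3 rose (15%, against 0.542% of all genes): *Lcn2*, *Cp* and the mitochondrial iron importer *Slc25a37*. *Slc25a37* read 7.75 and 7.87 against 9.12 and 9.06 (1.28 ± 0.10, adjusted p = 0.00112) and passed in all 8 reduced fits. Transferrin, *Trf*, read 10.28 and 10.97 against 11.97 and 11.91 (1.31 ± 0.29, adjusted p = 0.134) and the ferritin chain *Fth1* changed by 0.08 ± 0.11.

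Regulators of growth arrest and immediate early response were represented by single genes. *Gadd45b*, a stress sensor that modulates MAP kinases, read 8.53 and 8.28 in control and 9.81 and 9.92 after hyperoxia (1.45 ± 0.11, FR 2.74, adjusted p = 0.00114). It was 1 of 19 genes of the p53 and growth arrest list to pass (5.26%, against 0.542% of all genes that rose). *Atf3*, a stress-induced transcription factor, read 7.30 and 7.26 against 8.05 and 7.91 (0.70 ± 0.11, adjusted p = 0.0374). It was 1 of 27 immediate early genes to pass (3.7%, against 0.542% of all genes that rose). *Atf3* passed in 2 of the 8 reduced fits, those without a hyperoxia superior array. *Fosl1* changed by 0.51 ± 0.09 (adjusted p = 0.0609) and *Dusp1* by -0.58 ± 0.13 (adjusted p = 0.137). Of 37 cell death genes 0 passed in limma, 6 had an unadjusted p under 0.05 and 0 passed by the methods' t-test; the anti-apoptotic *Bcl2* changed by -0.39 ± 0.09 and the pro-apoptotic *Bid* by 0.43 ± 0.10 (both adjusted p = 0.157). Of 25 genes of the unfolded protein and heat shock response 0 passed in limma, 3 had an unadjusted p under 0.05 and 0 passed by the methods' t-test.

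**Figure D5:**
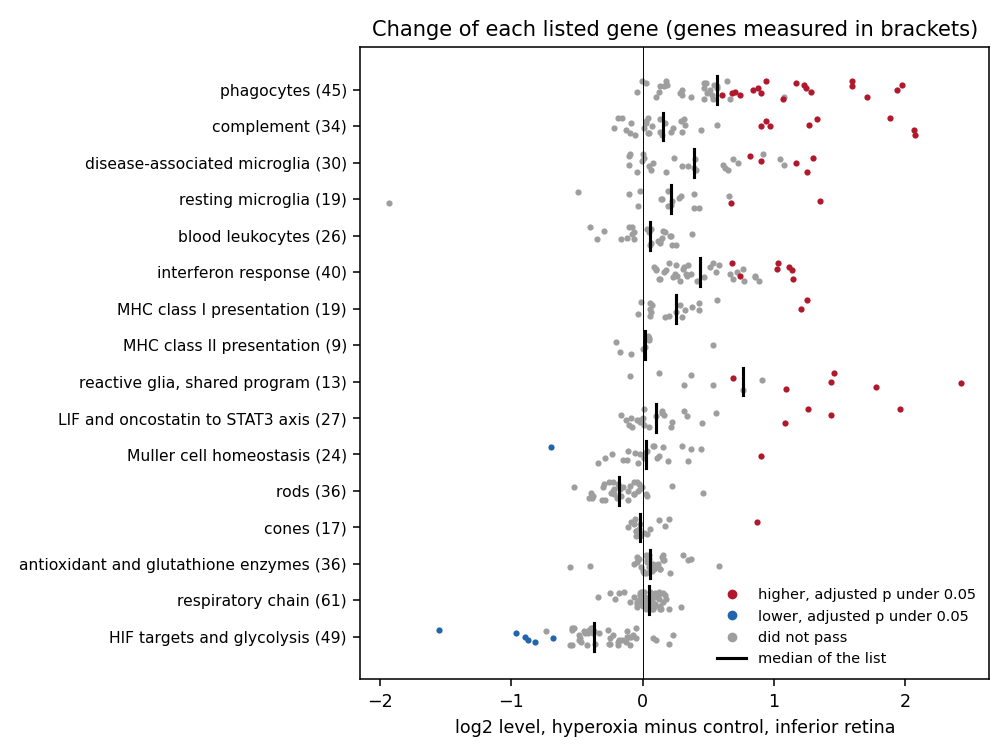
Change of every measured member of 16 gene lists in the inferior retina (log2, hyperoxia minus control; brackets give the genes measured, the bar is the list's median). Phagocyte, interferon and reactive glia genes lie mostly above 0 and HIF and glycolytic genes below 0, and members that passed are red (higher) or blue (lower).

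Among retinal neurons and glia few identity genes passed. Of 36 rod genes 0 passed in limma, 12 had an unadjusted p under 0.05 (10 below 0), 0 passed by the methods' t-test and the median was -0.18. The rod factor *Nrl* read 10.58 and 10.55 against 10.19 and 10.11 (-0.41 ± 0.09, adjusted p = 0.136) and the guanylate cyclase *Gucy2f* changed by -0.52 ± 0.13 (adjusted p = 0.18), while *Impg2*, a proteoglycan of the matrix around photoreceptors, read 11.36 and 11.33 against 11.93 and 11.68 (0.46 ± 0.10, adjusted p = 0.136). The rod list averaged 12.04 and 12.05 on the control arrays, 12.00 on hyperoxia replicate 1 and 11.78 on hyperoxia replicate 2, and its median change was -0.03 without the latter. Of 17 cone genes 1 rose (5.88%, against 0.542% of all genes), the transducin subunit *Gnb3*, which bipolar cells share. *Gnb3* read 11.20 and 11.11 against 12.00 and 12.05 (0.87 ± 0.08, adjusted p = 0.00368). It was lost only without hyperoxia inferior replicate 2. Of 24 genes of Müller cell housekeeping, *Cd9* rose (4.17%, against 0.542% of all genes) and *Glul* fell (4.17%, against 0.0552% of all genes). *Glul*, the glutamine synthetase with which these cells detoxify glutamate, went from 13.18 and 13.12 to 12.35 and 12.54 (-0.70 ± 0.11, adjusted p = 0.0416). *Glul* passed only without a hyperoxia superior array (adjusted p up to 0.172 otherwise). The potassium channel *Kcnj10* of the same cells changed by -0.34 ± 0.10 (adjusted p = 0.292). Bipolar (21 genes), amacrine and horizontal (28) and ganglion cell (19) lists gave 0 calls in limma and by the methods' t-test, with 0, 4 and 1 genes at an unadjusted p under 0.05. Of 23 endothelial and 12 mural cell genes 0 passed by either test, with 3 and 1 at an unadjusted p under 0.05, and of 19 genes of the VEGF and angiopoietin pathway 0 passed by either, with 4 at an unadjusted p under 0.05; placental growth factor, *Pgf*, changed by 0.47 ± 0.11 (adjusted p = 0.157) and the receptor *Kdr* by 0.46 ± 0.15 (adjusted p = 0.333).

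Beyond the lists, 49 genes rose and 4 fell. By size of change the foremost was *A2m*, alpha-2-macroglobulin, a broad protease inhibitor, at 8.04 and 8.74 in control and 10.17 and 10.37 after hyperoxia (1.88 ± 0.21, FR 3.68, adjusted p = 0.00722). *Chil1*, a chitinase-like protein of activated glia, read 9.47 and 9.38 against 10.83 and 11.07 (1.53 ± 0.12). *Crym*, a thyroid hormone-binding protein, read 8.86 and 8.57 against 9.98 and 10.35 (1.45 ± 0.15), and the leucine-rich repeat gene *Lrrc2* 9.79 and 9.68 against 11.19 and 11.16 (1.44 ± 0.10). *A2m* was lost without either hyperoxia inferior array (adjusted p up to 0.103) and the other 3 passed in all 8 reduced fits. Of the falls, the uncharacterised gene *2610528A11Rik* read 8.94 and 8.68 against 7.49 and 7.32 (-1.40 ± 0.11, FR 0.38, adjusted p = 0.00114), passed in all 8 reduced fits and changed by -1.40 in the superior retina (adjusted p = 0.0245). *Spc25*, a kinetochore component, read 10.30 and 10.16 against 9.28 and 9.31 (-0.94 ± 0.09, adjusted p = 0.00379; 0.0548 without hyperoxia inferior replicate 2), the linker histone *H1f2* changed by -0.66 ± 0.08 and *Hdc*, which makes histamine, by -0.65 ± 0.10. The cell division list, to which *Spc25* was not assigned, gave 0 of 23 in limma and by the methods' t-test, with 1 at an unadjusted p under 0.05. *H1f2* passed in 4 reduced fits and *Hdc* in 0. Some further genes were picked after their values were seen: *Ahr*, the aryl hydrocarbon receptor, rose by 0.70 and its target *Cyp1b1* by 0.67, the intermediate filament gene *Nes* by 0.70 and the membrane glycoprotein gene *Pdpn* by 1.00. Of these 4, *Ahr* and *Nes* missed the threshold in all 8 reduced fits, and *Cyp1b1* and *Pdpn* passed in 1 each.

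The inferior changes were then set beside those of the superior retina, where the same contrast was measured on its own 4 arrays. Retinas were divided into both regions, so superior and inferior samples may come from the same animals; the labels do not say, and the test treated them as separate. The test of the difference between both changes passed for 1 of 28853 probe sets (0.00347%), with 1744 at an unadjusted p under 0.05. That probe set was *Edn2*, which read 7.55 and 7.43 in control and 8.20 and 8.17 in hyperoxia-exposed superior retina, a change of 0.70 there against 2.81 in the inferior retina, and the difference was 2.11 ± 0.12 (adjusted p = 0.00185). With the pigment epithelium level in the model, added with the data in view, 0 probe sets passed this test, and without control inferior replicate 1 there were 30. The next smallest p-values belonged to *C1qb*, with changes of 2.07 and 0.54 (adjusted p of the difference = 0.129), *Fgf2*, with 1.63 and 0.54 (0.23), *Timp1*, with 1.46 and 0.18 (0.242) and *Prtg*, a cell-surface protein of the immunoglobulin family, with 1.23 and 0.25 (0.242). For these 4 the difference between regions did not pass. Some genes that rose in the inferior retina also passed limma in the superior retina. There *Gfap* changed by 1.245 and *Ly86* by 1.11 (both adjusted p = 0.0296), and *Osmr* by 0.93 (adjusted p = 0.0457). *Serpine3* changed by 2.01 in superior retina (adjusted p = 0.0296) and by 1.26 in inferior retina. HIF targets had changes below 0 in both regions, with -0.96 in the superior retina for *Slc16a3*, -0.67 for *Pfkl* and -0.57 for *Bnip3*, and none of these 3 differed between regions past the adjusted threshold (unadjusted p = 0.00479, 0.167 and 0.809). *Serpina3n* changed by 1.78 in inferior and by 1.71 in superior retina, with a difference of 0.07 whose unadjusted p was 0.858.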

How the data were processed

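Total RNA of superior and inferior retina was hybridised to 8 Affymetrix Mouse Gene 1.0 ST arrays, 2 in each of 4 groups named by the labels. The authors corrected background by RMA, summarised probes by median polish in Partek, and deposited log2 values per probe set; tool versions and the normalization between arrays are not stated by the labels or methods, so the log2 values were used as deposited. Array medians were nearly equal. Precision is limited by 2 arrays per group.

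A 4-group linear model was fitted to all 8 arrays and 28853 probe sets with limma 3.58.1 in R 4.3.3, and Benjamini-Hochberg adjusted p-values were read at 0.05; the difference between regional changes was a contrast of the same fit. Scripts were tested on simulated data. A gene was represented by its probe set of highest mean level. The rule for named genes took the 20 largest rises and up to 15 largest falls that passed (11 genes fell), list members that passed, and the 4 members of each list with the smallest p; other members are given as values, and not every gene that met the rule is described. Members and lists were chosen with earlier results of these data known. Promoters came from RefSeq (GRCm38.p6) and were not available for every gene. Alternatives covered normalization, filters, variance settings, the t-test of the study's methods, the replicate number as a block, lens level as a covariate and omission of each array.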

Additional observations from a re-analysis of the deposited data

Results flagged for a closer look

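The change of *Edn2* was larger in the inferior than in the superior retina by 2.11 on the log2 scale, and the test of that difference passed the adjusted threshold (limma, adjusted p = 0.00185). Both hyperoxia-exposed arrays lay above both control arrays in each region.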

How the results depend on the processing

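With 2 arrays per group, the counts depended on how the spread was estimated. Against 142 probe sets, 1 regional difference and 66 listed genes that passed, leaving out probe sets with a mean level under 6 gave 259 probe sets and 2 regional differences. A variance trend gave 374, 3 and 114, the 4 inferior arrays alone gave 39 probe sets and 28 listed genes, and the methods' t-test gave 2, 0 and 2, with 2561 probe sets at an unadjusted p under 0.05. With the pigment epithelium level in the model, chosen after seeing the data, 0 regional differences passed. Leaving out 1 array at a time gave 35 to 168 probe sets, 1 to 30 regional differences and 26 to 72 listed genes. Without control inferior replicate 1 the 143 probe sets were 76 higher and 67 lower. Quantile normalization, median centring, a robust prior, lens level as a covariate and removal of lens probe sets gave 120 to 147 probe sets. Same-numbered arrays deviated together with correlations of -0.02 to 0.14, so the numbers were not taken to pair samples; with the replicate number as a block 127 probe sets passed, 112 of them shared, with 1 regional difference and 66 listed genes.

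Some values that did not pass in the 8-array fit changed sign. With 1 array left out at a time, *Mtf1* ranged from -0.0979 to 0.0707, *Tmem119* from -0.0053 to 0.2785, *Vhl* from -0.1445 to 0.0316, *Vim* from -0.1515 to 0.7828, *Clcf1* from -4e-04 to 0.3246, *Vax2* from -0.1148 to 0.2121 and *Crybb1* (called lower without control inferior replicate 1) from -4.3849 to 0.5191. *Mtf1* was 0.0056 after quantile normalization and 0.0203 with the pigment epithelium level in the model. The cause was not tested.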
